A study of Homo sapiens with 6 samples.

Results

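The WNT genes described here are 53 of the 19973 genes in the deposited table, chosen by name: the WNT ligands, the frizzled (FZD) receptors, the co-receptors LRP5 and LRP6, the alternative receptors ROR1, ROR2 and RYK, the R-spondin receptors of the LGR family with the ligases RNF43 and ZNRF3, the secreted antagonists (DKK, SFRP, FRZB, WIF1 and NOTUM) and the feedback genes AXIN2, NKD1 and NKD2. Although it was set with earlier results of these data known, the rule uses only the names of these genes and no measured value. They were compared by RNA-seq between OVCAR3 cells, an established human ovarian cancer line, carrying shNUF2, a hairpin against the kinetochore gene NUF2 (labelled NUF2 knockdown), and the same line carrying the control hairpin shNC (labelled WT), with 3 libraries in each group. Both groups were transfected and selected with puromycin as stable lines, so that the comparison is between lines made with a single hairpin each, without an untransfected line and without a rescue. The labels do not say whether the 3 libraries of a group came from separate cultures, so the p-values measure the spread between these libraries, which may be technical.

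WNT proteins are secreted lipid-modified ligands that bind a frizzled receptor together with LRP5 or LRP6. In the canonical branch, this stops the breakdown of β-catenin, which then joins TCF/LEF factors at target genes, among them feedback inhibitors such as AXIN2 and NKD1. Other WNTs act through ROR and RYK receptors on cell polarity and calcium, while secreted antagonists and the membrane ligases RNF43 and ZNRF3 hold signaling back.

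The libraries held between 13057534 and 16995452 reads on genes. NUF2, the targeted gene, fell to 281, 290 and 384 reads with shNUF2 from 903, 1096 and 1092 with shNC (log2 fold change -1.51, standard error 0.08), in the direction of its labels. The quasi-likelihood test of edgeR was used, and a gene passed it at a Benjamini-Hochberg adjusted p under 0.05 over the 12874 genes tested, and it was called a differentially expressed gene (DEG) when its log2 fold change was beyond 1 in either direction with an unadjusted p under 0.05. An exact permutation test of a single gene with 3 libraries against 3 cannot go below p = 0.10. In bulk RNA, fewer cells with a transcript and less transcript per cell cannot be told apart.

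Among the WNT genes with enough reads to be tested, the intracellular feedback genes and the antagonist DKK1 rose most, while LRP5, LRP6, LGR4, ZNRF3 and most of the abundant frizzled receptors fell. These were 35 of the 53. Of these, 12 rose with shNUF2 and 11 fell, while 12 did not pass. Over all genes tested, 33.9% passed as higher and 33.8% as lower, so that the share of WNT genes that passed was close to the background in both directions. DEGs numbered 6 higher (WNT9A, DKK1, DKK3, AXIN2, NKD1 and NKD2) and 3 lower (FZD6, LRP5 and ZNRF3), beside a background of 9.41% higher and 4.16% lower. In 26 of the 35, 13 in each direction, no shNUF2 library lay within the shNC range, which held for 70.6% of all genes tested. The median log2 fold change was 0.10 over the WNT genes tested and -0.01 over all genes, and the median size of the change, whatever its sign, was 0.66 against 0.38. The fitted fold changes are drawn by role in the plot of the 35 genes.

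**Figure D1:**
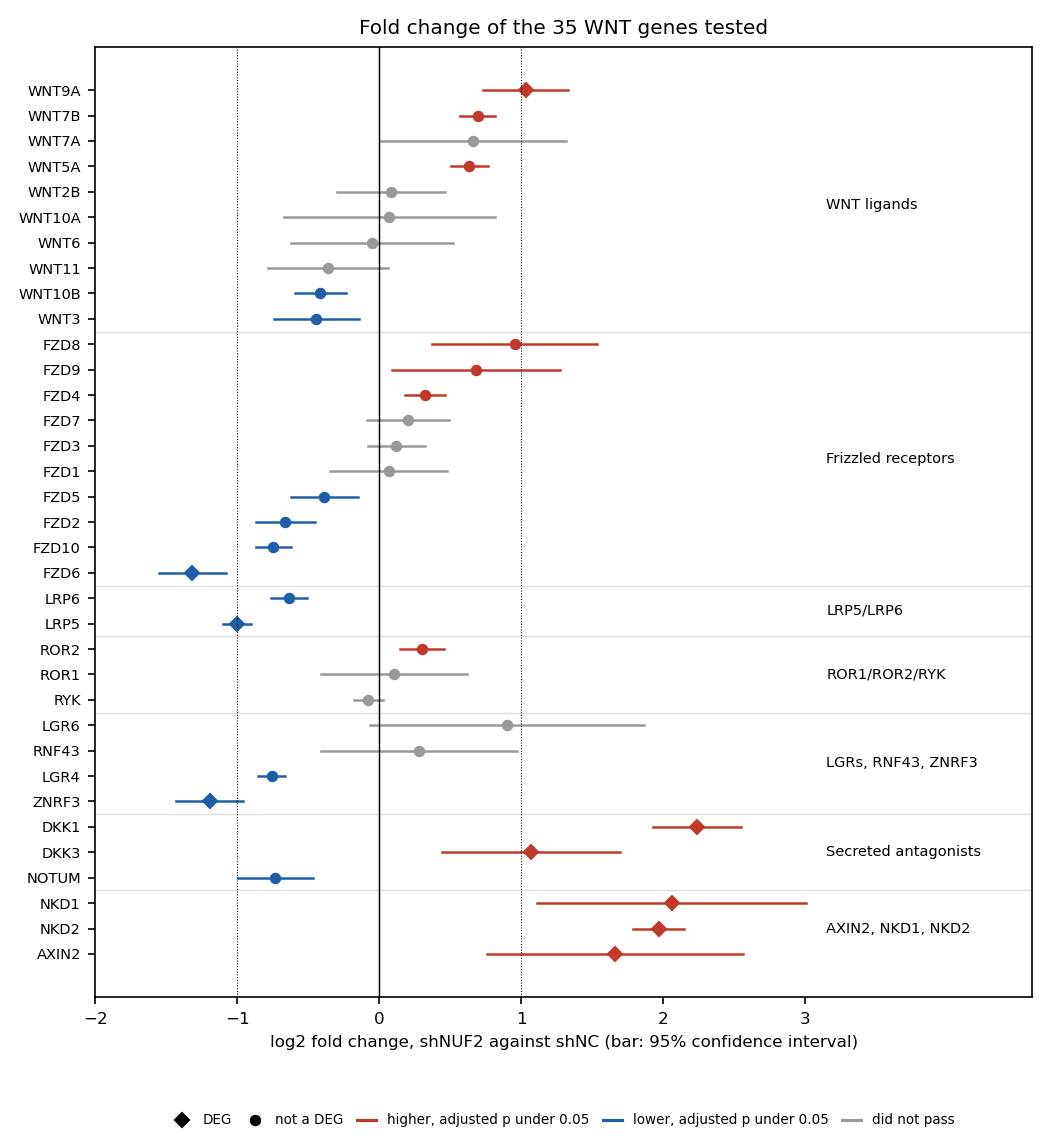
Log2 fold change of each of the 35 WNT genes tested (x axis, shNUF2 against shNC, with its 95% confidence interval), grouped by role on the y axis. Diamonds mark the 9 DEGs and grey marks the 12 genes that did not pass. AXIN2, NKD1, NKD2 and DKK1 lie to the right of 1, and FZD6 and ZNRF3 to the left of -1.

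Promoter sequence from RefSeq (GRCh38.p14) was read for the members with an entry, 35 of 53 by symbol, to show the DNA just before the start of genes that changed. The 4 DEGs with an entry follow on the strand of the gene, each as the 250 bases that end at the base before the transcription start. DKK1 lies at chr10:52314031-52314280 (plus strand), NKD2 at chr5:1008552-1008801 (plus strand), WNT9A at chr1:227947933-227948182 (minus strand) and LRP5 at chr11:68312341-68312590 (plus strand). Capitals mark the core that TCF/LEF factors bind, searched on both strands as CTTTG followed by AA, AT, TA or TT.
DKK1: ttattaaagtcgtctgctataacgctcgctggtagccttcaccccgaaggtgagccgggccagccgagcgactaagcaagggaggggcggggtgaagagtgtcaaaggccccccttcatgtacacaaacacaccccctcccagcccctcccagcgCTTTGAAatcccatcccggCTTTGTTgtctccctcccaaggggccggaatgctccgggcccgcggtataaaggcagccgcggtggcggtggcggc
NKD2: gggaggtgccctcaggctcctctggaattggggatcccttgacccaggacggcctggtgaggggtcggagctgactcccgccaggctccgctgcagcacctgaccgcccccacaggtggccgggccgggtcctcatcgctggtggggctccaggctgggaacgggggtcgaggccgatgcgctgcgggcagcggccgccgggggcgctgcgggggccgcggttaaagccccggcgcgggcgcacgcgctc
WNT9A: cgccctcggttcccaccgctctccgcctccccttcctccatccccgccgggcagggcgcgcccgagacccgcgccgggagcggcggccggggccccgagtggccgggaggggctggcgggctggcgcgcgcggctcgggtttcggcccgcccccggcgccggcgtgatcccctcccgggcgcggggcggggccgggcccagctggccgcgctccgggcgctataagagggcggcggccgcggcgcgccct
LRP5: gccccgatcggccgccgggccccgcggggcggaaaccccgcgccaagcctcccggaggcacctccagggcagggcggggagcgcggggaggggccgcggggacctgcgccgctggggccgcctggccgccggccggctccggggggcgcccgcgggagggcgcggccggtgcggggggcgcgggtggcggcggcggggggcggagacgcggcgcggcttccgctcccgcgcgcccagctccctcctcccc
The DKK1 sequence holds 2 matches, CTTTGAA starting 95 bases and CTTTGTT starting 76 bases before the transcription start, while the other three hold none. The 35 matched members have 41 promoter entries, and 1 of these, that of DKK1, held a match in this window. Of the 35114 RefSeq promoter entries, 12.0% have one. The G and C share of these stretches was 62.8% in DKK1, 75.6% in NKD2, 84.4% in WNT9A and 87.2% in LRP5, against a median of 58.0% over all promoters. A match is a run of letters and was not tested for binding. The DEGs AXIN2, NKD1, DKK3, FZD6 and ZNRF3 have no entry.

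All 3 intracellular feedback genes passed as higher, beside 33.9% of all genes tested, and were DEGs higher, beside 9.41%. NKD2, whose protein binds Dishevelled and damps WNT signaling, was the most abundant of them. Its reads numbered 225, 215 and 216 with shNC and 759, 686 and 813 with shNUF2 in libraries 1, 2 and 3. Every shNUF2 library lay over 3 times above every shNC library on this count. Scaled to CPM, the count relative to the TMM-scaled library, the mean was 13.9 ± 1.69 with shNC and 54.4 ± 1.79 with shNUF2 (SD, n = 3), a log2 fold change of 1.97 (standard error 0.09, adjusted p = 1.14e-16). NKD2 (ENSG00000145506) is on chromosome 5 of GRCh38 from 1008802 to 1038943 and has no overlapping gene in GENCODE release 29.

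AXIN2 and NKD1 were counted in few reads. AXIN2 encodes a scaffold of the complex that degrades β-catenin and is widely used as a readout of canonical signaling. It was counted in 5, 7 and 8 reads with shNC against 16, 22 and 18 with shNUF2, without overlap (log2 fold change 1.66, standard error 0.44, adjusted p = 0.00157). For NKD1, the paralog of NKD2, the counts were 4, 6 and 5 under shNC and 15, 18 and 23 under shNUF2 (2.06, standard error 0.46, adjusted p = 0.000319), again without overlap. Per length, both stayed low also with shNUF2, at an FPKM of 0.222 to 0.322 for AXIN2 and 0.0626 to 0.087 for NKD1, where NKD2 had 18.0 to 18.9. AXIN2 is on chromosome 17 from 65528563 to 65561648, and NKD1 is on chromosome 16 from 50548396 to 50649249. On a log2 scale of FPKM with 1 added, NKD1 did not pass (adjusted p = 0.166) and neither gene was a DEG. With 0.1 added in place of 1, both passed but again neither was a DEG (0.97 for AXIN2 and 0.57 for NKD1). Summed over the 3 feedback genes, FPKM was 4.47 to 5.56 with shNC and 18.4 to 19.2 with shNUF2, most of it NKD2.

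**Figure D2:**
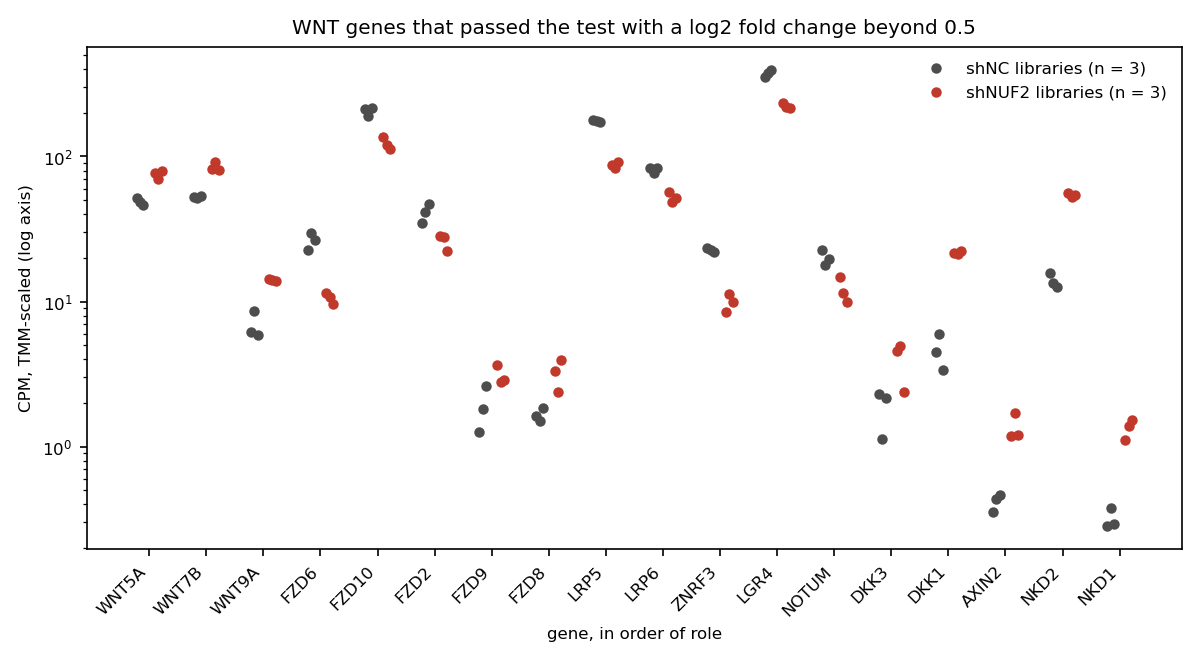
CPM (y axis, log scale) in each of the 3 shNC and 3 shNUF2 libraries for the WNT genes that passed the test with a log2 fold change beyond 0.5 in either direction, in order of role. Each point is a library. The points of the groups stand apart for every gene shown, narrowly for FZD9 and DKK3 and widely for NKD2 and DKK1.

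Among the secreted antagonists, 3 of 11 had enough reads to be tested: DKK1 and DKK3 rose and NOTUM fell. Of all genes tested, 33.9% rose and 33.8% fell. DKK1 blocks canonical signaling by binding LRP5 and LRP6, and it had the largest log2 fold change of the WNT genes tested. DKK1 was counted in 64, 96 and 58 reads under shNC against 290, 278 and 338 under shNUF2. The shNC libraries were spread more widely than the shNUF2 libraries, at 4.63 ± 1.32 CPM against 21.8 ± 0.593 CPM (SD, n = 3). The fitted log2 change was 2.24 (standard error 0.15, adjusted p = 5.65e-13), and between 2.04 and 2.48 with any library left out. DKK1 (ENSG00000107984) is on chromosome 10 from 52314281 to 52318042.

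DKK3 is a divergent member of the same family that does not act as a plain LRP inhibitor. Its reads numbered 33, 18 and 37 with shNC and 61, 64 and 36 with shNUF2. The counts overlap between shNC library 3 and shNUF2 library 3, and only after scaling to the library do the groups separate, at 1.87 ± 0.646 CPM against 3.95 ± 1.36 CPM. DKK3 passed at a log2 change of 1.07 (standard error 0.30, adjusted p = 0.00303). Its DEG call was lost without shNC library 2 (0.81), shNUF2 library 1 (0.96) or shNUF2 library 2 (0.88), and with limma on log2 FPKM with 1 added (0.19) or 0.1 added (0.71), although it passed the test each time. DKK3 is on chromosome 11 from 11956207 to 12009769 and overlaps USP47 on the other strand, whose own log2 fold change was -0.16.

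NOTUM is a secreted enzyme that removes the lipid from WNT ligands and so inactivates them. NOTUM reads fell from 320, 286 and 339 with shNC to 199, 149 and 150 with shNUF2 (log2 fold change -0.73, standard error 0.13, adjusted p = 1.72e-05). All shNUF2 libraries were below all shNC libraries. Per length, NOTUM was the most abundant antagonist with shNC, at an FPKM of 6.25 to 7.78 against 1.54 to 2.75 for DKK1, and with shNUF2 the order was the opposite, at 3.38 to 4.95 against 9.46 to 9.99. The summed FPKM of the 11 antagonists rose from 9.13 to 10.7 with shNC to 14.0 to 15.0 with shNUF2, with no overlap and no test on the sum.

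The other 8 antagonists were too low to test. WIF1, DKK2 and SFRP2 had no read in any library, where a count of 0 allows up to 3 reads. SFRP1 and DKK4 reached at most 1 and 2 reads, SFRP4 at most 4 and FRZB at most 9. SFRP5, a secreted decoy for WNT ligands, was the exception, at 17, 6 and 12 reads under shNC but 0, 1 and 2 under shNUF2. The shNC libraries had 10.2 times the SFRP5 reads of the shNUF2 libraries per read counted (95% interval 3.22 to 51.9, exact and for counting error only, over 35 and 3 reads). Fitted without a filter on low counts, SFRP5 passed as lower (adjusted p = 0.000966). NOTUM and DKK1 made up most of the antagonist FPKM in every library.

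The co-receptors LRP5 and LRP6, which the canonical branch needs, both fell, as did 33.8% of all genes tested. LRP5 reads numbered 2536, 2787 and 2970 with shNC and 1174, 1078 and 1385 with shNUF2. In CPM this was 175 ± 2.94 against 87.4 ± 4.58 (SD, n = 3), and no shNUF2 library came near the shNC range. The log2 fold change of LRP5 was -1.00 (standard error 0.05, adjusted p = 8.09e-16), just past the DEG threshold, and the DEG call was lost without shNC library 1 (-0.99), shNUF2 library 1 (-0.9995) or shNUF2 library 2 (-0.97) while the size of the change hardly moved. It was also lost with DESeq2 size factors, the DESeq2 Wald test and limma on log2 FPKM with 1 added (each -0.99), and with a filter of 1 CPM in 3 libraries (-0.996). LRP6 reads fell from 1191, 1238 and 1442 to 772, 635 and 776 (-0.64, standard error 0.06, adjusted p = 1.26e-09). Again the groups did not overlap. The summed FPKM of the pair was 36.3 to 37.2 with shNC and 18.0 to 19.6 with shNUF2. LRP5 is on chromosome 11 from 68312591 to 68449275 and LRP6 on chromosome 12 from 12116025 to 12267044, where it overlaps BCL2L14 on the other strand.

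**Figure D3:**
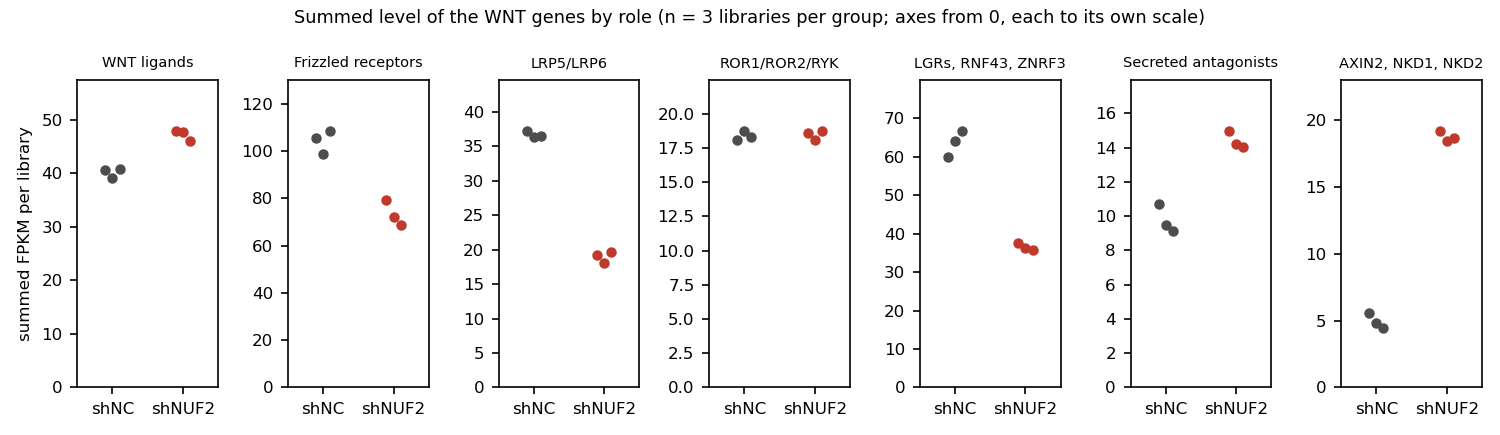
Summed FPKM of the WNT genes of each role in each library (points, 3 per group, y axes from 0 and each to its own scale). The sums of the frizzled receptors, LRP5 and LRP6, and the LGR and ligase genes lie lower with shNUF2, those of ligands, antagonists and feedback genes lie higher, and those of ROR1, ROR2 and RYK overlap at 18.1 to 18.7.

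Among the 5 LGR and ligase genes, LGR4 and ZNRF3 fell, LGR6 and RNF43 did not pass and LGR5 was not tested. Of all genes tested, 33.8% fell. LGR4, a receptor for R-spondins, was among the most abundant WNT genes. LGR4 reads numbered 5046, 6046 and 6807 with shNC and 3146, 2830 and 3270 with shNUF2, and each shNUF2 library was far below the lowest shNC library. The fitted log2 change was -0.76 (standard error 0.05, adjusted p = 1.05e-13). ZNRF3, a ligase that clears frizzled receptors from the cell surface, fell from 330, 365 and 379 reads to 115, 146 and 150 (-1.19, standard error 0.11, adjusted p = 7.45e-10). In CPM the shNC libraries lay at 22.7 ± 0.604 and the shNUF2 libraries at 9.91 ± 1.35. The DEG call was lost with limma on log2 FPKM with 1 added (-0.84). ZNRF3 is on chromosome 22 from 28883572 to 29057488.

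RNF43, the paralog of ZNRF3, had 14 to 31 reads in the shNC and 19 to 27 in the shNUF2 libraries, so ZNRF3 was the main ligase of the pair by FPKM with both hairpins (3.19 to 3.35 against 0.157 to 0.288 with shNC). Its log2 fold change had a 95% interval of -0.41 to 0.97. LGR6 had 4 to 13 and 12 to 21 reads (0.90, 95% interval -0.07 to 1.87, adjusted p = 0.0928) and passed only without shNC library 1 (1.29, adjusted p = 0.0457). By the DEG rule, which takes the unadjusted p, it was called there and without shNUF2 library 3 (1.11, adjusted p = 0.0669). LGR5, a stem cell marker and itself a WNT target, showed 1, 0 and 0 reads under shNC against 2, 2 and 4 under shNUF2. The ratio was 9.13 with a counting interval of 1.22 to 405. LGR5 did not pass when fitted without a filter on low counts (adjusted p = 0.128). The summed FPKM of the 5 genes was 60.0 to 66.6 with shNC and 35.7 to 37.6 with shNUF2, nearly all of it LGR4.

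All 10 frizzled receptor genes were tested: 4 fell (FZD2, FZD5, FZD6 and FZD10), 3 rose (FZD4, FZD8 and FZD9) and FZD1, FZD3 and FZD7 did not pass. The shares of all genes tested were 33.8% lower and 33.9% higher, so these counts were near the background. FZD6, which acts in cell polarity and can restrain canonical signaling, had the largest decrease of the WNT genes tested. FZD6 reads numbered 324, 472 and 456 with shNC and 154, 139 and 145 with shNUF2. No library of either group came within the range of the other, at 26.3 ± 3.38 CPM against 10.6 ± 0.897 CPM (SD, n = 3). The fitted log2 change was -1.32 (standard error 0.12, adjusted p = 1.25e-10). FZD6 is on chromosome 8 from 103298433 to 103332866.

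FZD10, little expressed in most adult tissues, was the main frizzled receptor of these cells. FZD10 reads fell from 3037, 3040 and 3690 with shNC to 1844, 1549 and 1700 with shNUF2 (log2 fold change -0.75, standard error 0.06, adjusted p = 1.59e-11). FZD2 reads fell from 496, 657 and 804 to 381, 360 and 333 (-0.66, standard error 0.10, adjusted p = 1.95e-06). In both genes all shNUF2 libraries were below all shNC libraries. FZD5, with an FPKM of 2.11 to 2.34 and 1.66 to 1.72, fell less (-0.39, standard error 0.11, adjusted p = 0.00424).

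FZD4, a receptor for norrin as well as WNTs, rose a little, from an FPKM of 13.0 to 16.7 with shNC to 16.6 to 19.2 with shNUF2 (log2 fold change 0.32, standard error 0.07, adjusted p = 0.00016). The FPKM ranges overlap slightly, while the CPM values do not. FZD4 overlaps PRSS23 on the other strand, which itself rose by 0.64, and since the kit keeps the strand but the strand setting of the counting is not given in the sources used here, reads of this pair may not be fully separated. FZD8 rose from 23, 24 and 32 reads to 45, 31 and 59 (0.95, standard error 0.28, adjusted p = 0.00414), and became a DEG without shNC library 3 (1.04) or shNUF2 library 2 (1.12). FZD9 rose from 18, 29 and 45 reads to 49, 36 and 43 (0.68, standard error 0.29, adjusted p = 0.0396), with counts that overlap and CPM values that do not. That call is not firm: it was lost without shNC library 1 (adjusted p = 0.181), shNC library 2 (0.0983), shNUF2 library 1 (0.154), shNUF2 library 2 (0.051) or shNUF2 library 3 (0.055).

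The frizzled receptors therefore changed in their proportions as well as in their sum. The summed FPKM was 98.7 to 108 with shNC and 68.8 to 79.1 with shNUF2. FZD10 made up 59.8% to 62.2% of it with shNC and 49.4% to 51.5% with shNUF2, while the share of FZD4 went from 13.2% to 15.8% up to 23.1% to 26.1%. These shares did not overlap between groups and were not tested. FZD7, a receptor studied in ovarian and other epithelial tumors, showed 157, 177 and 157 reads under shNC against 159, 183 and 153 under shNUF2 (0.20, 95% interval -0.08 to 0.49). FZD3 lay at 0.12 (-0.08 to 0.32) and FZD1 at 0.07 (-0.34 to 0.48).

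**Figure D4:**
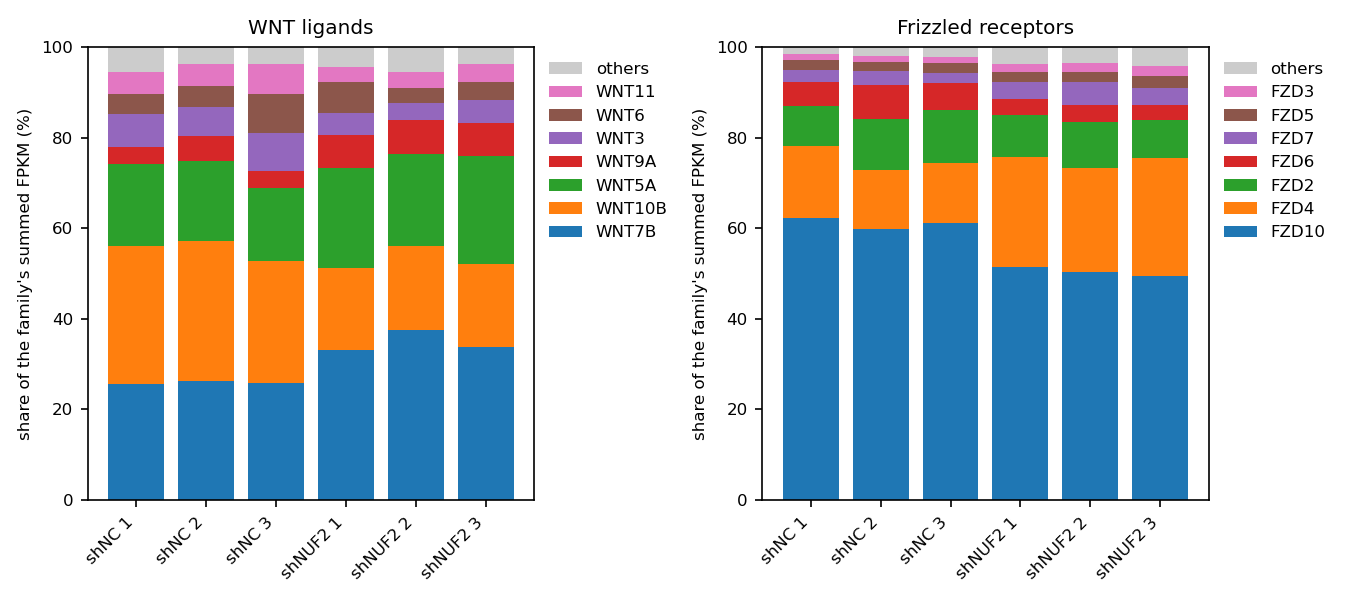
Share of the summed FPKM (y axis, percent) of the WNT ligands and of the frizzled receptors held by each gene in each of the 6 libraries; the 7 most abundant genes of each family are drawn and the rest are pooled in grey. With shNUF2, WNT7B takes 33.1% to 37.5% of the ligand sum and FZD10 falls to 49.4% to 51.5% of the receptor sum.

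Of the 19 WNT ligands, 10 were tested: WNT5A, WNT7B and WNT9A rose, WNT3 and WNT10B fell, and WNT2B, WNT6, WNT7A, WNT10A and WNT11 did not pass. These counts were no higher than the background, where 33.9% of all genes tested rose and 33.8% fell. WNT7B, a ligand of epithelia, rose from 742, 824 and 912 reads with shNC to 1112, 1186 and 1205 with shNUF2 (log2 fold change 0.69, standard error 0.06, adjusted p = 9.12e-11). WNT5A, the best-known ligand of the non-canonical branch, rose from 734, 774 and 801 to 1045, 913 and 1195 (0.64, standard error 0.06, adjusted p = 1.43e-09). In both, the lowest shNUF2 library was above the highest shNC library. WNT9A was counted in 88, 138 and 101 reads under shNC against 194, 183 and 209 under shNUF2 (1.03, standard error 0.15, adjusted p = 6.82e-07), from 6.90 ± 1.51 CPM to 14.1 ± 0.251 CPM. Its DEG call was lost without shNC library 1 (0.96) or shNC library 3 (0.92), with library totals only (0.99) and with limma on log2 FPKM with 1 added (0.72) or 0.1 added (0.98). WNT9A is on chromosome 1 from 227918656 to 227947932.

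WNT10B, a canonical ligand, was the most abundant ligand by FPKM with shNC, at 11.0 to 12.4, close above WNT7B at 10.3 to 10.6. It fell to 8.41 to 8.83 (log2 fold change -0.42, standard error 0.09, adjusted p = 0.00015), while WNT7B reached 15.6 to 17.9 and WNT5A 9.78 to 11.0, so that WNT10B was below both with shNUF2. Its share of the ligand sum went from 26.9% to 30.8% down to 18.0% to 18.5%, and that of WNT7B from 25.5% to 26.3% up to 33.1% to 37.5%. The ligand sum itself was 39.2 to 40.8 with shNC and 46.1 to 47.9 with shNUF2. WNT3, another canonical ligand, fell from an FPKM of 2.51 to 3.50 to 1.81 to 2.31 (-0.44, standard error 0.15, adjusted p = 0.00883), a call lost without shNC library 3 (adjusted p = 0.0844) or shNUF2 library 2 (0.0634).

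WNT7A, with 18 to 31 reads and 31 to 34 reads, had a log2 fold change of 0.66 (95% interval 0.01 to 1.32) that missed the threshold after adjustment (adjusted p = 0.0681) and passed without shNC library 1 (1.00, adjusted p = 0.0176). WNT11 lay at -0.36 (95% interval -0.78 to 0.06) and WNT2B at 0.08 (-0.30 to 0.46). WNT6 and WNT10A, neighbors on chromosome 2 with 6618 bp between them, lay at -0.05 (-0.62 to 0.52) and 0.07 (-0.67 to 0.82), with intervals too wide to show a moderate change. The remaining pairs of neighbors differed in level: WNT9A and WNT10B were well counted, while WNT3A, 59065 bp from WNT9A, had at most 4 reads, and WNT1, 6586 bp from WNT10B, had at most 8. WNT9B, 46 bp from WNT3 in the deposited coordinates, had at most 2 reads.

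The other 6 untested ligands were WNT2 and WNT8A with no read, WNT5B with at most 3 reads, WNT8B with at most 5, WNT4 with at most 11 and WNT16. WNT16 stood at 0, 0 and 3 reads under shNC against 16, 14 and 5 under shNUF2. All shNUF2 libraries were above all shNC libraries, with a ratio of 13.3 per read counted (95% counting interval 4.20 to 67.7, over 3 and 35 reads). Fitted without a filter on low counts, WNT16 passed as higher (adjusted p = 0.000205).

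The alternative receptors moved little. ROR2, a receptor for WNT5A, rose from an FPKM of 4.95 to 5.26 with shNC to 6.02 to 6.31 with shNUF2 (log2 fold change 0.30, standard error 0.08, adjusted p = 0.00111). RYK, the most abundant of them at 12.6 to 13.0 and 11.4 to 12.0, lay at -0.08 with a 95% interval of -0.18 to 0.03, and it did not pass although the groups did not overlap. ROR1 lay at 0.10 (-0.41 to 0.62) on 38 to 62 reads. Their summed FPKM was 18.1 to 18.7 in both groups.

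Ranked by FPKM over all 53 genes, FZD10 (59.0 to 66.2) and LGR4 (56.3 to 63.0) came first with shNC and could not be told apart. LRP5 followed at 28.3 to 29.1, clear of FZD4 at 13.0 to 16.7. With shNUF2, FZD10 (34.0 to 40.7) and LGR4 (33.8 to 35.9) again came first and overlapped. NKD2 (18.0 to 18.9) now overlapped FZD4 (16.6 to 19.2), which also overlapped WNT7B (15.6 to 17.9), and all 3 stood above LRP5 at 13.4 to 14.7. With shNC, NKD2 had been at 4.36 to 5.47, in the range of ROR2.

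Further genes of the pathway were taken as 6 lists of 117 genes in all, of which 89 were tested, 38 rose and 27 fell, with 11 DEGs higher and 3 lower. Over all genes tested, 33.9% rose, 33.8% fell, 9.41% were DEGs higher and 4.16% DEGs lower, and the falls and the lower DEGs of the lists were no more frequent than that. Their median log2 fold change was 0.08. These lists were chosen with earlier results of these data known. Both genes needed to release WNT ligands rose: PORCN, which attaches the lipid, from 2050, 1947 and 2103 reads with shNC to 5011, 4158 and 5102 with shNUF2 (1.41, standard error 0.06, adjusted p = 2.54e-17), and WLS, which carries the ligand to the surface, by 0.62 (standard error 0.06, adjusted p = 4.99e-10). Every shNUF2 library was above every shNC library for both. Among R-spondins and other extracellular modulators, 4 of 8 tested rose and 2 fell (list median 0.35). TPBG and KREMEN2, a partner of DKK1, rose by 0.80 and 0.97, and TRABD2A and TRABD2B, proteases that cut WNT ligands, lay at -0.79 and -0.45. Of the R-spondins, RSPO3 reached 8 to 15 reads with shNC and 13 to 26 with shNUF2, and RSPO1, RSPO2 and RSPO4 had at most 1 read.

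In the destruction complex and cytoplasmic transduction, 6 of 24 tested rose and 8 fell, beside 33.9% and 33.8% of all genes, and the list median was 0.00. CTNNB1, which encodes β-catenin, rose by 0.35 (standard error 0.04, adjusted p = 4.41e-08), from 4500, 4897 and 5121 reads to 5189, 5168 and 5840, and the kinase gene GSK3B rose by 0.59. DACT3, a Dishevelled antagonist, was not read in any shNC library and was read 51, 28 and 28 times with shNUF2, at least 39.7-fold higher when 3 reads are allowed over the shNC group. APC2, a homolog of the scaffold APC, and FRAT1, a GSK3 inhibitor, were DEGs at -1.09 and -1.10, while APC lay at 0.13 and did not pass. The TCF/LEF factors and nuclear cofactors split into 7 higher and 6 lower of 16 tested (median 0.16), beside the same shares of all genes, with TLE1 at 0.92 and TLE2 at -0.96, both co-repressors, and the β-catenin cofactor gene PYGO2 at -0.71. TCF7L2 and LEF1 rose by 0.53 and 0.76.

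Among β-catenin target genes outside the 53 WNT genes, 9 of 13 tested rose and 1 fell (median 0.77), beside 33.9% and 33.8% of all genes, and 5 were DEGs, all higher, beside 9.41%. TCF7 and LEF1 are on this list as well as on that of the TCF/LEF factors. FOSL1 (2.32) and JUN (2.03), subunits of AP-1 that also answer to MAP kinases, CD44 (1.65), SOX9 (1.80) and PPARD (1.41) were these 5, and each is known to be regulated by other pathways too. CCND1, which encodes cyclin D1, fell by 0.70 on the log2 scale (standard error 0.04, adjusted p = 1.13e-13). MYC (-0.08), SOX4 (-0.04) and SP5 (-0.57) did not pass. Of the 8 targets tested that are themselves WNT genes, AXIN2, NKD1, NKD2 and DKK1 rose, NOTUM and ZNRF3 fell, and RNF43 and FZD7 did not pass.

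Genes of cell polarity and non-canonical transduction gave 12 higher and 10 lower of 28 tested (median -0.07), where 33.9% and 33.8% of all genes passed. The DEGs were DAAM1, a formin (1.22), RAC1 (1.03), NFATC1 (1.15) and NFATC2 (1.29), all higher, and CELSR2, a cadherin of the polarity pathway (-1.01). Its family member CELSR3 fell by 0.63 on the log2 scale. The values of all 6 lists are drawn in the plot of the other pathway genes.

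**Figure D5:**
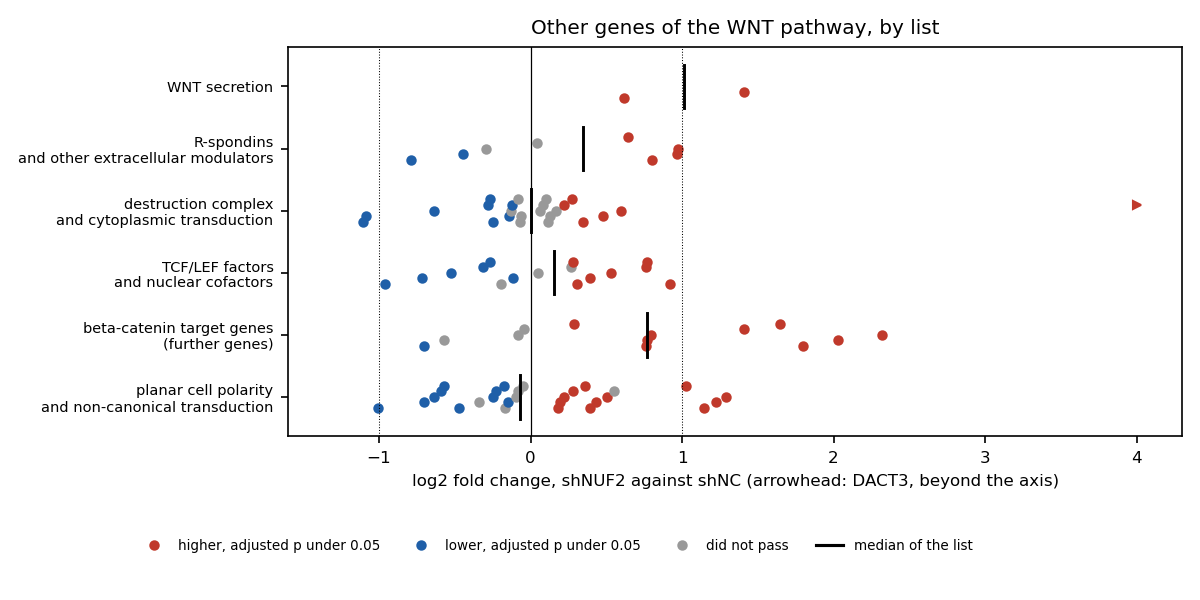
Log2 fold change (x axis, shNUF2 against shNC) of each tested gene in 6 further lists of the WNT pathway (rows), with the list median as a black bar. TCF7 and LEF1 are drawn in both lists that hold them. The medians run from -0.07 (cell polarity) to 1.01 (WNT secretion), and DACT3 lies beyond the axis.

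Markers of the labelled cell type and of other cell types were measured beside these genes. Of the 10 ovarian epithelial markers, KRT7, KRT8, KRT18, MSLN, MUC16 and PAX8 were well counted, CDH1 (9 to 33 reads) and EPCAM (44 to 91 reads) were low, and WT1 and KRT19 reached at most 7 and 8 reads. Their summed FPKM was 399 to 425 with shNC and 373 to 402 with shNUF2, with 4 of 8 tested higher and 3 lower, beside 33.9% and 33.8% of all genes. The overlapping sums held changes in both directions: the keratin genes KRT8 (1.04, a DEG) and KRT18 (0.55), PAX8 (0.64) and EPCAM (0.69) rose on the log2 scale, while MSLN (-0.75), MUC16 (-0.75) and KRT7 (-0.22) fell. For the 9 fibroblast markers the sum was 9.48 to 10.1 and 7.65 to 8.79, with PDGFRA at 0 throughout, 2 of 4 tested higher and 1 lower. Most of that sum was COL1A1, which fell by 0.39 on the log2 scale, while FAP rose from 5, 5 and 6 reads to 38, 50 and 30 (3.05), DCN rose from 65, 40 and 67 to 130, 104 and 117 (1.22) and COL3A1, not tested, had 1, 0 and 2 against 15, 15 and 5. For the 6 immune markers it was 0.681 to 0.957 and 1.59 to 2.40, with 1 of 1 tested higher, and PTPRC had 0, 1 and 0 reads and 6, 11 and 6. For the 6 endothelial markers it was 0.343 to 0.454 and 0.749 to 1.06, with 2 of 3 tested higher. The immune and endothelial sums were higher and the fibroblast sum was lower with shNUF2, each without overlap between groups, and the part of these markers, the epithelial ones included, in the changes of WNT genes was not tested. Overlapping annotation is a further limit: 19 of the 35 WNT genes tested and 7 of the 9 DEGs overlap another gene of GENCODE release 29, all but NKD2 and LRP5.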

How the data were processed

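RNA-seq was performed in OVCAR3 cells carrying shNC or shNUF2, with 3 libraries per group made with a stranded mRNA kit. The authors deposited read counts per gene without normalization and FPKM values for 19973 genes, the latter being the counts per kilobase of the deposited gene length and scaled to the reads counted in the library (relative deviation at most 2.71e-07). The submitters' processing notes name cutadapt, HISAT, HTSeq and GRCh38.p13, with no version. Samples were grouped by their labels. No pair of libraries of a group agreed within sampling noise (chi-square per degree of freedom 2.75 to 4.66). The biological coefficient of variation in edgeR was 4.93%.

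The test was run in edgeR 4.0.16 under R 4.3.3 (filterByExpr, TMM, quasi-likelihood test, all 6 libraries, no covariate). Standard errors are the log2 change over the root of the F statistic. DEGs were taken at the study's thresholds, read on the log2 scale. CPM values are TMM-scaled. Ratios of few reads carry exact 95% intervals, which cover counting error only. Counts set the precision: genes under about 30 reads per library have wide intervals. The members, the 6 pathway lists and the 4 marker lists were chosen with earlier results of these data known. Every member is accounted for; members with an adjusted p under 0.05 and a log2 fold change beyond 0.5, and DEGs, are given in every library, and of the other lists the DEGs and the leading genes of each direction. BCL2L14, USP47, PRSS23 and list genes (APC, CTNNB1, the R-spondins, MYC, SOX4, SP5, TCF7L2, LEF1 and the markers) were named after their values were seen.

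Alternatives were other scalings (DESeq2 size factors, upper quartile, library totals), DESeq2 1.42.0, other filters, the replicate block, each library left out, limma 3.58.1 on log2 FPKM with 1 or 0.1 added, and adjusted p in the DEG rule. The fits were tested on simulated data. Python 3.11.15 with pandas 2.3.3 and matplotlib 3.10.9 was used for sequences and figures.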

Additional observations from a re-analysis of the deposited data

How the results depend on the processing

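Of the 23 WNT genes that passed, 20 passed with the same sign under each of the 15 alternative fits; the exceptions were FZD9, WNT3 and NKD1. FZD9 was also lost with library totals only (adjusted p = 0.0502) and with the DESeq2 Wald test (0.0576). RYK passed with library totals only (adjusted p = 0.0441) and WNT11 with limma on log2(FPKM + 1) (0.0478). With limma on log2(FPKM + 1), DEGs were 430 higher and 206 lower over all genes, 2 and 1 among WNT genes, and 5 and 0 among the further lists; with log2(FPKM + 0.1), 2 WNT genes were higher. Without a filter on low counts the further lists gave 17 DEGs higher, and the WNT genes gave 7 higher and 4 lower, with WNT16 and SFRP5 added. Leaving out a library gave 1 to 4 lower DEGs in the further lists (1 without shNC replicate 3, shNUF2 replicate 1 or shNUF2 replicate 3). The sign changed over left-out libraries for genes that did not pass: WNT10A (-0.17 to 0.38), WNT6 (-0.43 to 0.34), FZD1 (-0.026 to 0.16) and ROR1 (-0.14 to 0.32).

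The replicate block gave 1207 DEGs higher and 536 lower over all genes, and 6 and 3 among WNT genes, and changed no call of a WNT gene. Deviations of same-numbered libraries from their group means were unrelated (correlations 0.03, 0.01 and -0.04), so the numbers were not read as pairs; 2 of the 6 libraries correlated best with their own number in the other group. LRP5 and WNT9A lie so near the DEG threshold that other scalings also moved them across it (LRP5 -0.99 with DESeq2 size factors, WNT9A 0.99 with library totals only). Depth limits the 18 untested genes, none of which had more than 17 reads in a library.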
